A study of Mus musculus with 6 samples.

Results

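Solute carrier (Slc) genes encode the membrane proteins that move amino acids, sugars, ions, metals, vitamins and metabolites into, out of and within cells. They were taken from a table of single mouse morulae by symbol, as every row named Slc followed by a family number, a letter and a member number, with 1 pseudogene row left out. This gave 193 of the 12125 genes of the table, from 44 families. Of these, 36 belonged to Slc25, the family of carriers of the inner mitochondrial membrane, and 157 to the other families, and both classes are described apart throughout. The symbol rule also took in 5 rows that are not carriers themselves, namely Slc7a6os and Slc13a2os (transcripts opposite a carrier gene), Slc4a1ap (an adaptor protein) and Slc9a3r1 and Slc9a3r2 (scaffold proteins of the exchanger NHE3).

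To see how the morula responds to the absence of Rbpj, the transcription factor through which Notch signals reach DNA, RNA was sequenced from 6 single embryos at embryonic day 2.5 on an outbred background. There were 3 Rbpj-/- morulae, 2 from litter 808 and 1 from litter 810, and 3 controls, all from litter 808, of which 1 was heterozygous (Rbpj+/-) and 2 were wildtype (Rbpj+/+). Each embryo was 1 library, and the females were not superovulated for this experiment. Because litter 810 gave a single embryo, a mutant, its genotype and its litter cannot be told apart, and the tests below were made both over all 6 embryos and between littermates, that is the 2 Rbpj-/- embryos of litter 808 against their 3 control littermates. The title of the heterozygous embryo calls it wildtype, whereas its genotype field gives Rbpj(+/-), which was followed here.

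In the cleaving embryo, transport decides which nutrients can be used. The early mouse embryo lives on pyruvate and lactate, which enter through the monocarboxylate carriers of the Slc16 family, and takes up glucose in quantity only from compaction onwards through the Slc2 (GLUT) family. It holds its volume with inorganic ions and organic osmolytes, and imports amino acids through sodium-driven carriers and exchangers. Once inside, metabolites cross the inner mitochondrial membrane on Slc25 carriers, which exchange ADP for ATP and bring in phosphate, amino acids and acylcarnitines.

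The libraries differed in depth. The 2 Rbpj-/- embryos of litter 808 had 2962425 and 4330126 reads in the table, the litter 810 mutant had 10064016, and the controls 12690030 to 14585313, so that the mutants that carry the littermate comparison are also the shallowest libraries. Rbpj itself was at 10.5, 24.3 and 1.32 in Rbpj-/- embryos, against 37.04 in the heterozygote and 111 and 96.9 in wildtype embryos, but since Rbpj and Neo expression also served to genotype the embryos, this is no independent check. All 10 morula markers examined were present in every embryo, and their sum was 7835, 9112 and 6398 in Rbpj-/- embryos, against 5364, 4519 and 5102 in controls, higher in every mutant than in any control. The part of this difference in the results below was not tested. None of 6 cumulus cell markers was in the table, and 4 of 5 oviduct markers summed to 13.5 to 137 in Rbpj-/- embryos and 32.6 to 125 in controls. Globin and other blood transcripts (5 of 9 in the table) summed to 210, 41.5 and 7305 in Rbpj-/- embryos, against 1110, 5.39 and 5446 in controls, with no separation by genotype. All values are normalised values (CPM, reads scaled to library size and between libraries by TMM), and 3 reads correspond to a value of 0.201 to 1.09 depending on the embryo.

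As RBPJ binds DNA at a short core motif, the promoters of the Slc genes were searched for the letters GTGGGAA on both strands, in windows from 250 bases before to 50 bases after the start of each RefSeq gene (GRCm38.p6). Promoters were found for 147 of the 193 genes, and 16 of these held the motif (10.9%), against 7.25% of the 27025 genes with a promoter and 6.91% of the 8562 tested genes with one. Of the 22 genes with a promoter that fell between littermates (below), 3 held it: Slc5a6, the carrier of the vitamins biotin and pantothenate, Slc25a22, a mitochondrial glutamate carrier, and Slc27a1, a fatty acid transport protein. Their windows are printed because they are the ones in which the motif and a fall between littermates coincide. The mutant of the other litter did not share the fall of Slc25a22, and was above all controls for this gene (below). They lie at chr5:31048513-31048812 on the minus strand, chr7:141434545-141434844 on the minus strand and chr8:71568621-71568920 on the plus strand, and capitals mark the motif or its reverse complement.
Slc5a6: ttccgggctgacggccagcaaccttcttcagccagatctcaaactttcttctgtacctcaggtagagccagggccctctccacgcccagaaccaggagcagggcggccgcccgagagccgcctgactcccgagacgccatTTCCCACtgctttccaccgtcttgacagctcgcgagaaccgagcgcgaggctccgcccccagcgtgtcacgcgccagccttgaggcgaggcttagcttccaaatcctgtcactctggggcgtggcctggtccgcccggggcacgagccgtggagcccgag
Slc25a22: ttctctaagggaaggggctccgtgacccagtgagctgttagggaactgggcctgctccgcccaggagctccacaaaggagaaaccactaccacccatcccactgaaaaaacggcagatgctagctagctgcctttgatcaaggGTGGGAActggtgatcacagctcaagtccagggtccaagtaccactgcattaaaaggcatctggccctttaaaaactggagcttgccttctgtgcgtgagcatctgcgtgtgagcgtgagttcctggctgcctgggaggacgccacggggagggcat
Slc27a1: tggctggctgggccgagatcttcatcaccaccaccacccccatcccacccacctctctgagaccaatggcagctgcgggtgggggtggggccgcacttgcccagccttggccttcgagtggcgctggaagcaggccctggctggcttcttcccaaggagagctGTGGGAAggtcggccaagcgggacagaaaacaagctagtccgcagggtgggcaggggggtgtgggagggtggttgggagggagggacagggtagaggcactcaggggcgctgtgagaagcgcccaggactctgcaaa
The motif began 110, 107 and 87 bases before the start in Slc5a6, Slc25a22 and Slc27a1, and it read TTCCCAC on the gene's strand in Slc5a6 and GTGGGAA in the other two. Slc5a6, Slc25a22 and Slc27a1 had 2, 3 and 3 such windows in all, from different annotated starts, and the window printed for each holds the motif. A match of 7 letters is a description of the sequence and not a binding site.

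The 2 classes of Slc genes differed in their summed level in the litter 808 mutants, and the difference between the classes was not tested. Summed over the 157 genes outside Slc25, the normalised value was 6058 and 7514 in these embryos and 12775 in the litter 810 mutant, against 11609 in the heterozygote and 12014 and 12410 in wildtype embryos. The sum of the 36 Slc25 genes was 3899 and 3774 in the litter 808 mutants and 3425 in the litter 810 mutant, against 3344, 3295 and 3264 in controls. Plasma membrane and organelle carriers thus had a smaller share of the transcripts in both litter 808 mutants than in any other embryo (0.563% and 0.706%, against 1.19% to 1.27% in controls), whereas mitochondrial carriers did not. Single abundant genes weigh on these sums. Without Slc38a6, a member of the amino acid carrier family Slc38, the other Slc genes summed to 5418 and 6984 in the litter 808 mutants and 10353 in the litter 810 mutant, against 10757 to 11392 in controls. Without Slc25a3 and Slc25a5, the Slc25 genes summed to 1600 and 1740 in the litter 808 mutants and 1821 in the litter 810 mutant, against 1702 to 1883 in controls, so that the higher Slc25 sum rests on these genes. The share of the remaining 34 was 0.149% and 0.163% in the litter 808 mutants and 0.192% in the litter 810 mutant, against 0.176% to 0.193% in controls. It was thus smaller in both litter 808 mutants than in any other embryo, as was the share of the other Slc genes. That the 2 classes differed in direction therefore rests on Slc25a3 and Slc25a5. A difference in size remained, as the share of the other Slc genes was lower by a wider margin (0.563% and 0.706%, against 1.19% to 1.27% in controls).

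**Figure D1:**
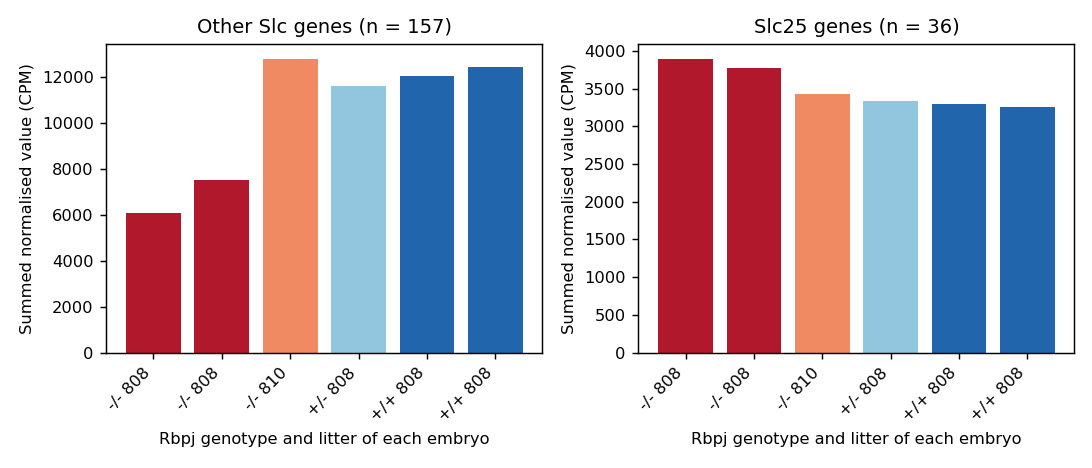
Summed normalised value (CPM, linear axis from 0) of the 157 other Slc genes (left) and the 36 Slc25 genes (right) in each embryo, 1 bar per embryo. The 2 Rbpj-/- embryos of litter 808 have the lowest bars for other Slc genes (6058 and 7514) and the highest for Slc25 (3899 and 3774), and the Rbpj-/- embryo of litter 810 stands near the controls.

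Tested gene by gene with limma on log2(value + 1), 31 of the 192 Slc genes that passed the filter on low values fell between littermates and none rose. The genes that passed had a value above 1 in at least 3 embryos, and only Slc6a18, a member of the amino acid transporter family Slc6 with a mean value of 0.934, was left out. Among all 12099 genes tested in the same fit, 11.3% fell and 5.85% rose. Outside Slc25, 27 of 156 genes fell (17.3%), and in Slc25 4 of 36 fell (11.1%), close to the share of all genes. The median log2FC (log2 fold change, Rbpj-/- over control, with its standard error, SE, for single genes) was −0.74 in the other Slc genes and 0.29 in Slc25, beside −0.16 in all genes, and 115 of the 156 other Slc genes (73.7%) but 16 of the 36 Slc25 genes (44.4%) were below 0, beside 54.9% of all genes. Only abundant members were called. All 31 had a mean value of at least 10, and none of the 71 tested members below that mean was called. Among genes with a mean of at least 10, 27 of 94 other Slc genes (28.7%) and 4 of 27 Slc25 genes (14.8%) fell, beside 16.3% of 7812 genes. In each of the 31 genes both Rbpj-/- embryos of litter 808 were below all 3 controls. As the same embryos were used to call these genes, this is not separate evidence of a fall.

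The Rbpj-/- embryo of litter 810 did not share this shift in the median of the other Slc genes. Its median difference from the mean of the controls was 0.01 on the log2 scale in other Slc genes and 0.07 in Slc25, whereas the litter 808 mutants had −0.95 and −0.73 in other Slc genes and 0.10 and 0.08 in Slc25. Of the 31 genes that fell between littermates, this embryo was below all controls for 17, within their range for 10 and above them for 4. Among all 12099 genes tested it was below all controls for 3584 and above them for 3517. The 31 genes had been called with these same controls. Over all 6 embryos limma called no Slc gene in either direction, beside 0.0% of all genes lower and 0.0% higher. Before adjustment 28 members were lower and 1 was higher by limma (p under 0.05). edgeR likewise called none, and before adjustment it had 15 lower and 1 higher. DESeq2, run on the reads recovered from the table, called 9 members lower and none higher of the 107 that it gave an adjusted p, beside 3.51% lower and 1.39% higher among all genes. Those 9 were Slc25a44, Slc35e1, Slc5a3, Slc7a5, Slc12a2, Slc39a9, Slc25a15, Slc1a5 and Slc35b4, and 8 of them also fell between littermates by limma. For 28 members (24 other Slc and 4 Slc25) every mutant was below every control, 14.6% beside 12.8% of all genes, and for 8 (4 and 4) every mutant was above every control, 4.17% beside 8.91%. For such a gene the two-sided exact permutation test gives p = 0.1, which 3 mutants and 3 controls cannot go below.

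**Figure D2:**
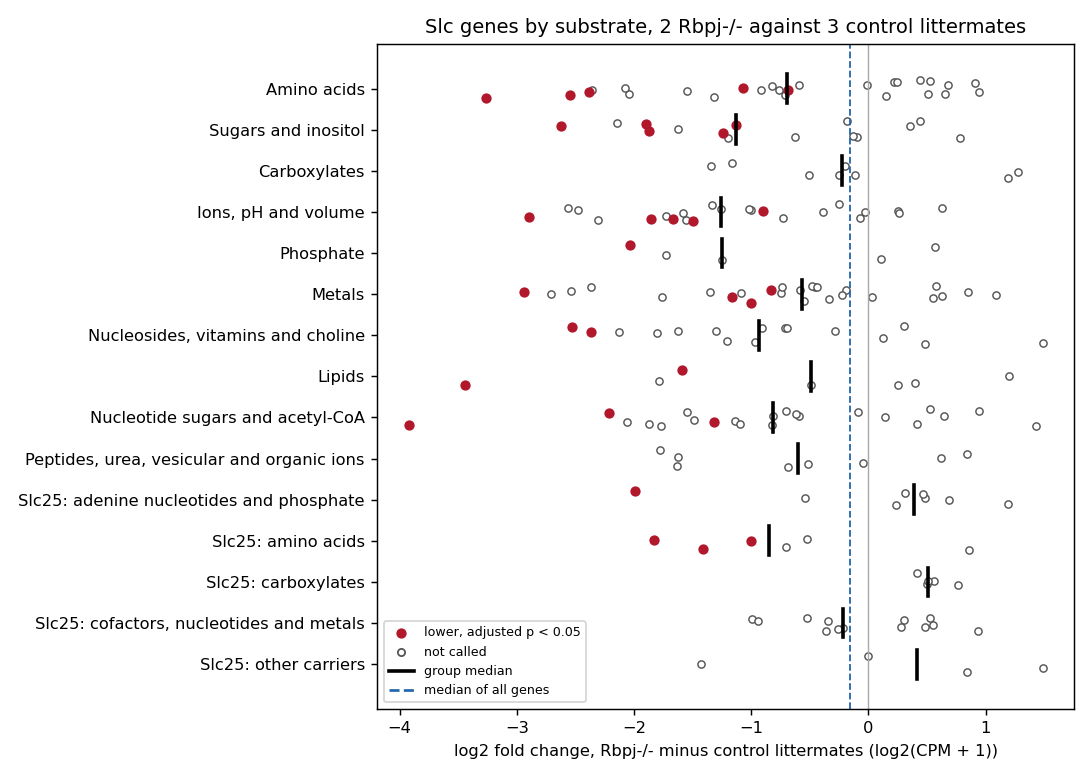
Log2FC between littermates, Rbpj-/- minus control on the log2(CPM + 1) scale, of the 192 Slc genes tested, in rows by family group (Slc5a6 among sugars, and the 5 rows that are not carriers among the families they are named for). Filled points are the 31 genes lower at an adjusted p under 0.05, open points the others, black bars the row medians and the dashed line the median of all genes (−0.16); filled points occur in 8 of the 10 rows outside Slc25 and in 2 of the 5 Slc25 rows.

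The substrate groups below follow family numbers, are counted without the 5 rows that are not carriers, and were not tested as groups. Their shares stand beside the 11.3% of all genes that fell. Amino acid carriers gave some of the clearest falls, 5 of 25 tested (20%), at a median log2FC of −0.71. Slc7a5 encodes LAT1, which exchanges large neutral amino acids such as leucine across the plasma membrane, and lies on chromosome 8 from 121881150 to 121907694 (GRCm38, minus strand). Its value was 14.5 and 17.2 in the litter 808 mutants and 33.9 in the litter 810 mutant, against 79.7 in the heterozygote and 115 and 71.8 in wildtype embryos. All mutants were thus below all controls, with the litter 810 embryo between its fellow mutants and the controls. Between littermates the log2FC was −2.39 (SE 0.36, limma adjusted p = 0.00421, 5.4e-08 to 0.0411 over 15 alternatives), and over all 6 embryos −2.04 (SE 0.43, adjusted p = 0.170, by DESeq2 0.0028). The partner that LAT1 needs to reach the membrane, the heavy chain encoded by Slc3a2, did not follow it. Slc3a2 was at 397, 550.4 and 584 in Rbpj-/- embryos, against 205, 447 and 387 in controls, with a log2FC between littermates of 0.51 (SE 0.33, adjusted p = 0.318).

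Slc1a5 encodes ASCT2, an exchanger of glutamine and other small neutral amino acids, on chromosome 7 from 16781340 to 16798274. It was at 1.45 and 5.65 in the litter 808 mutants (4 and 23 reads) and 15.2 in the litter 810 mutant, against 18.4, 55.5 and 52.6 in controls. The heterozygote was nearer to the litter 810 mutant than to the wildtype embryos. Its log2FC between littermates was −3.27 (SE 0.70, limma adjusted p = 0.0149, 8.6e-05 to 0.0832 over alternatives). Slc38a10, a further member of the Slc38 family, was at 3.27 and 6.39 in the litter 808 mutants and 21.7 in the litter 810 mutant, against 28.1, 37.3 and 30.4 in controls (log2FC −2.54, SE 0.53, limma adjusted p = 0.0136, 8.4e-05 to 0.0777 over alternatives). Slc6a6, which carries the osmolyte taurine, was at 169 and 218 in the litter 808 mutants, but at 366 in the litter 810 mutant, within the 356 to 505 of the controls (log2FC −1.07, SE 0.24, adjusted p = 0.0173).

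Slc38a6 set the single embryo of litter 810 apart most visibly among the abundant members. Its value was 640 and 529 in the litter 808 mutants and 2423 in the litter 810 mutant, against 851, 941 and 1018 in controls. It fell between littermates by 0.68 on the log2 scale (SE 0.19, adjusted p = 0.0374), while the litter 810 embryo was higher than any other. Over all 6 embryos the log2FC was 0.00 (SE 0.48, adjusted p = 0.998). Of the amino acid carriers with a known role in the early embryo, Slc38a2 (SNAT2) was at 3.27, 2.21 and 11.9 in Rbpj-/- embryos, against 11.4, 14.97 and 17.1 in controls (littermate adjusted p = 0.0536). Slc6a14, a carrier of neutral and cationic amino acids, was at 14.9, 15.7 and 10.2 in Rbpj-/- embryos, against 26.9, 20.3 and 39.6 in controls, below them in every mutant but not called (littermate adjusted p = 0.288). Slc7a11, the cystine carrier, stayed under 2 in every embryo.

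Carriers of ions that set pH and cell volume had the lowest median of the groups outside Slc25, a log2FC of −1.42, and 5 of 20 fell (25%). The rank depended on the setting. With the rows that are not carriers counted, the median was −1.254, beside −1.247 for phosphate carriers. With the length trend described below also removed, it was −0.82, and phosphate carriers had the lowest median, −1.11. Slc12a2 encodes NKCC1, which brings sodium, potassium and chloride into the cell, on chromosome 18 from 57878678 to 57946821. It was at 161 and 244 in the litter 808 mutants and 354 in the litter 810 mutant, against 757, 952 and 517 in controls. No mutant reached the lowest control, and the log2FC was −1.85 between littermates (SE 0.29, limma adjusted p = 0.00467, 7.6e-08 to 0.0386 over alternatives) and −1.58 over all 6 embryos (SE 0.35, adjusted p = 0.170, by DESeq2 0.00437). Its counterparts Slc12a7 (KCC4) and Slc12a4 (KCC1), which let potassium and chloride out, fell between littermates too, but the litter 810 embryo did not share the fall of Slc12a7. Slc12a7 was at 43.9 and 39.6 in the litter 808 mutants, against 397, 370 and 218 in controls, while the litter 810 mutant had 359.9. That log2FC, −2.90 (SE 0.30, adjusted p = 0.00097), had the smallest adjusted p of all 31. Slc4a11, of the bicarbonate carrier family, was at 85.7 and 117 in the litter 808 mutants and 284 in the litter 810 mutant, against 350.1, 276 and 339 in controls (log2FC −1.67, SE 0.24, adjusted p = 0.00334).

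**Figure D3:**
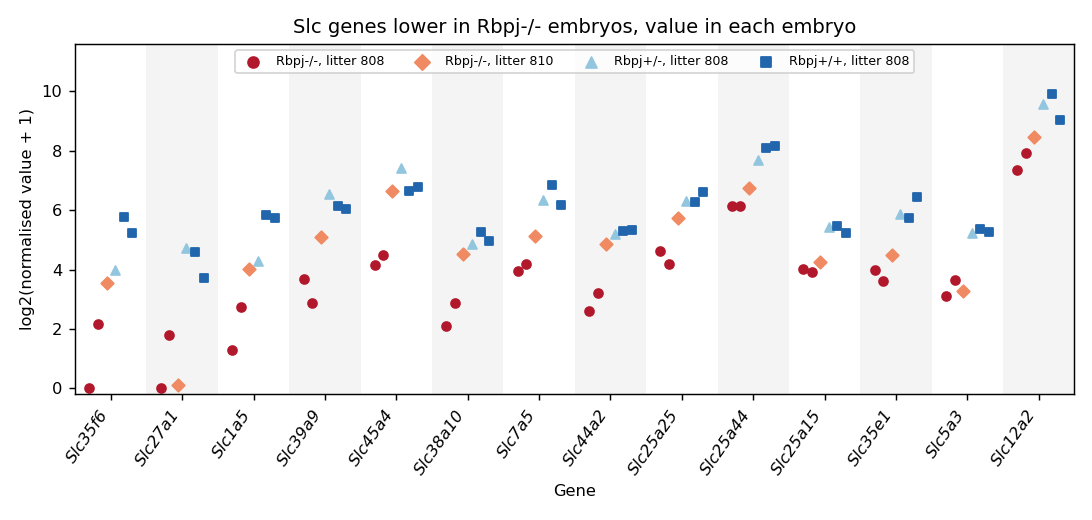
Value of 14 Slc genes in each embryo, as log2(normalised value + 1). Red circles are the Rbpj-/- embryos of litter 808, orange diamonds the Rbpj-/- embryo of litter 810, light blue triangles the heterozygote and dark blue squares the wildtype embryos. Genes were chosen for having every mutant below every control, or by a count test over the same embryos. That the mutants lie below the controls in every gene shown is therefore not separate evidence. In 12 of the 14 the diamond is the highest of the mutants.

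Among carriers of sugars and inositol, 4 of 14 fell (28.6%, the vitamin carrier Slc5a6 of the same families not counted), and none of them was a GLUT glucose carrier. Slc5a3 encodes SMIT1, which takes up the osmolyte myo-inositol, on chromosome 16 from 92058322 to 92087473. It was at 7.62, 11.6 and 8.66 in Rbpj-/- embryos, against 36.3, 40.1 and 37.3 in controls, and here the embryo of litter 810 was as low as the others. The log2FC was −1.94 over all 6 embryos (SE 0.48, limma adjusted p = 0.174, by DESeq2 0.00245) and −1.90 between littermates (SE 0.48, adjusted p = 0.0262). Slc5a3 overlaps exons of Mrps6 on the same strand, with which it can share reads. Slc5a11 (SMIT2), also an inositol carrier, and Slc37a1, of the glucose-6-phosphate carrier family, fell between littermates at log2FCs of −1.24 and −1.87 (adjusted p = 0.0435 and 0.0293). In this pair of genes the litter 810 mutant was not always below all controls.

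Slc5a6 shares the family number of the sugar carriers but transports the vitamins biotin and pantothenate. Per kilobase of its longest transcript it had the highest level of all Slc genes in controls, a mean of 712 CPM. Its value was 833 and 1489 in the litter 808 mutants and 2044 in the litter 810 mutant, against 2626, 2069 and 2646 in controls, so that the litter 810 mutant was just under the lowest control. It fell between littermates with a log2FC of −1.13 (SE 0.26, limma adjusted p = 0.0186, 0.00068 to 0.0868 over alternatives). Its exons overlap those of Atraid on the opposite strand, which the unstranded libraries cannot separate. Slc45a4, of a family related to plant sucrose carriers, was at 16.7 and 21.6 in the litter 808 mutants and 98.6 in the litter 810 mutant, against 169, 99.3 and 109 in controls (log2FC −2.62, SE 0.34, adjusted p = 0.00222).

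None of the 5 GLUT genes was called, and 4 of the 5 were below 0 between littermates, at a median log2FC of −0.13. Slc2a3 (GLUT3), the most abundant of them per kilobase, was at 495, 516 and 927 in Rbpj-/- embryos, against 434, 657 and 592 in controls (littermate log2FC −0.13, SE 0.22, adjusted p = 0.735). Slc2a1 (GLUT1) was at 2.90, 20.2 and 60.6 in Rbpj-/- embryos, against 4.07, 15.4 and 10.1 in controls, and Slc2a8 (GLUT8) at 58.1, 76.9 and 109, against 67.2, 127 and 130.2. Each of these genes had overlapping groups. Slc2a4, the insulin-responsive GLUT4, had no read in any Rbpj-/- embryo and a value of 4.84, 2.97 and 2.75 in controls, where 3 reads correspond to 1.09, 0.738 and 0.282 in the mutants. It was not called (littermate adjusted p = 0.0616). Of the carboxylate carriers none of 7 was called, at a median of −0.20. Slc16a1 (MCT1), the carrier of lactate and pyruvate, was at 17.4, 14.8 and 39.4 in Rbpj-/- embryos, against 52.4, 56.5 and 25.3 in controls (littermate log2FC −1.34, SE 0.46, adjusted p = 0.0751). Of the 17 measured transporters with a known role in the early embryo, 4 fell between littermates (Slc7a5, Slc1a5, Slc12a2 and Slc34a2) and none rose. This is 23.5%, beside the 11.3% lower and 5.85% higher of all genes.

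**Figure D4:**
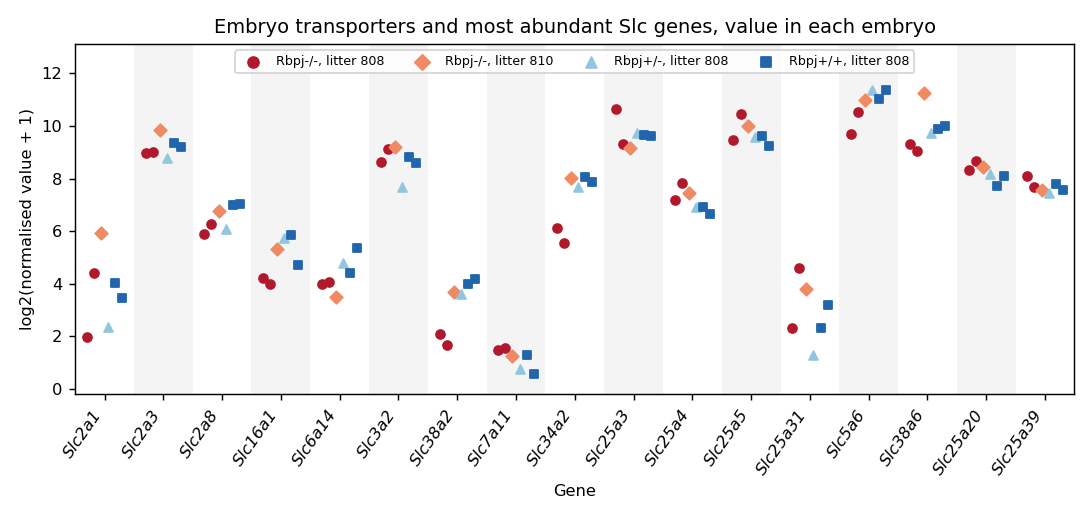
Value of 17 further Slc genes in each embryo, as log2(normalised value + 1), chosen for a known role in the early embryo or for their abundance, with the same symbols as the plot of genes lower in the mutants. Groups overlap in most genes, as in Slc2a3 (495 to 927 in Rbpj-/- embryos against 434 to 657 in controls), and Slc38a6 stands out in the litter 810 mutant at 2423.

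Metal carriers fell in 4 of 26 cases (15.4%), at a median log2FC of −0.57. Slc39a9 (ZIP9), a zinc importer, was at 11.98 and 6.39 in the litter 808 mutants and 32.8 in the litter 810 mutant, against 91.1, 69.3 and 64.5 in controls. The mutants were well apart from the controls, with a log2FC between littermates of −2.94 (SE 0.42, limma adjusted p = 0.00324, 2.9e-09 to 0.0350 over alternatives) and a DESeq2 adjusted p of 0.0204 over all 6 embryos. Part of its exons overlap Erh on the opposite strand. Smaller falls between littermates were those of Slc39a7 (ZIP7), which releases zinc from the endoplasmic reticulum, Slc30a5 (ZnT5), which loads zinc into the secretory pathway, and Slc11a2 (DMT1), an iron carrier, at −1.002, −1.17 and −0.83. In none of these 3 was the litter 810 mutant below all controls: it was at 117, 104 and 199, against 90.8 to 114, 101.3 to 148 and 195 to 206 in controls.

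Of carriers of nucleosides, vitamins and choline, 3 of 17 fell (17.6%), the vitamin carrier Slc5a6 above and a pair of choline transporter-like genes. Slc44a2 was at 5.08 and 8.36 in the litter 808 mutants and 28.2 in the litter 810 mutant, against 35.9, 38.8 and 39.3 in controls (log2FC −2.37, SE 0.47, limma adjusted p = 0.0113, 2.6e-05 to 0.0663 over alternatives). Slc44a1 fell by 2.53 on the log2 scale (SE 0.57, adjusted p = 0.0181), but for this gene the litter 810 mutant was within the range of the controls. Among lipid carriers 2 of 7 fell (28.6%), both fatty acid transport proteins. Slc27a1 was near 0 in the mutants, at 0, 2.46 and 0.0941 (0, 10 and 1 reads), against 25.3, 23.1 and 12.1 in controls. Its log2FC of −3.44 between littermates (SE 0.81, adjusted p = 0.0204, 0.00234 to 0.0927 over alternatives) understates the change at such low values. Slc27a4 fell by 1.59 (SE 0.45, adjusted p = 0.0395), with the litter 810 mutant at 41.8, inside the 28.9 to 46.3 of the controls.

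The Slc35 family, named for carriers of nucleotide sugars into the endoplasmic reticulum and Golgi, was counted together with the acetyl-CoA carrier Slc33a1. Of this group 3 of 22 fell (13.6%), and all 3 were members assigned to the Slc35 family by sequence likeness. Slc35f6 had the largest log2FC of the 31, −3.92 (SE 0.83, limma adjusted p = 0.0148, 0.000293 to 0.0811 over alternatives), and was not called by edgeR (adjusted p = 0.0567). Its values were 0 and 3.44 in the litter 808 mutants and 10.6 in the litter 810 mutant, against 14.7, 53.9 and 36.7 in controls. Slc35e1 was at 14.9, 11.3 and 21.3 in Rbpj-/- embryos, against 57.3, 52.6 and 86.1 in controls, so that all 3 mutants were at less than the lowest control (log2FC −2.21 between littermates, SE 0.41, adjusted p = 0.00891, and −1.99 over all 6, SE 0.44, DESeq2 adjusted p = 0.00169). Slc34a2, the phosphate carrier NaPi-IIb, was the only called gene of 5 in the phosphate group. It was at 69.0 and 45.97 in the litter 808 mutants, against 205, 268 and 234 in controls, while the litter 810 mutant had 259.6 (log2FC −2.04, SE 0.27, adjusted p = 0.0023). None of the 8 carriers of peptides, urea and organic ions was called.

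In Slc25 the genes that fell were 3 of the 6 amino acid carriers and 1 of the 8 carriers of adenine nucleotides and phosphate. Slc25a44, which brings branched-chain amino acids into mitochondria, lies on chromosome 3 from 88410498 to 88425139 and had the smallest DESeq2 adjusted p of all Slc genes over 6 embryos. It was at 69.7 and 69.8 in the litter 808 mutants and 106 in the litter 810 mutant, against 204, 269 and 286 in controls. The groups were clearly apart, with a log2FC of −1.83 between littermates (SE 0.25, limma adjusted p = 0.00287, 2.8e-10 to 0.0303 over alternatives) and −1.63 over all 6 embryos (SE 0.30, adjusted p = 0.170, by DESeq2 0.000237). Slc25a15, the ornithine carrier of the urea cycle, was at 15.2, 14.01 and 17.9 in Rbpj-/- embryos, against 42.5, 43.1 and 36.3 in controls. It was equally low in all 3 mutants within their spread (15.7 ± 1.98 in Rbpj-/- and 40.6 ± 3.75 in controls, SD, n = 3 each), with a limma adjusted p of 0.0448 between littermates (0.00633 to 0.177 over alternatives, called in 5 of 15) and a DESeq2 adjusted p of 0.0365 over all 6. The glutamate carrier gene Slc25a22 fell between littermates by 1.002 (SE 0.27, adjusted p = 0.0329), but the litter 810 mutant, at 151, was above the 96.2 to 112 of the controls. Slc25a25, a calcium-regulated carrier of ATP-Mg and phosphate, was at 23.6 and 17.2 in the litter 808 mutants and 52.4 in the litter 810 mutant, against 78.3, 76.3 and 95.9 in controls (log2FC −1.99, SE 0.34, adjusted p = 0.00611); part of its exons overlap Naif1 on the opposite strand.

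None of the carriers that serve ATP synthesis was called. Slc25a3, the phosphate carrier, was at 1592, 637 and 574 in Rbpj-/- embryos, against 859, 800.1 and 776 in controls. The ADP/ATP carrier genes Slc25a5 and Slc25a4 were at 707, 1397 and 1029 and at 143, 228 and 176 in Rbpj-/- embryos, against 771, 793 and 605 and 119, 118 and 98.6 in controls. Slc25a4 was above all controls in every mutant, at a log2FC of 0.69 between littermates (SE 0.27, adjusted p = 0.116), and Slc25a5 overlapped them (0.47, SE 0.28, adjusted p = 0.289). These genes and the low Slc25a31, a testis-enriched member, are related in sequence and may share reads, which was not tested. Slc25a20, which carries acylcarnitines for fatty acid oxidation, was at 319, 408 and 342 in Rbpj-/- embryos, against 288, 211 and 274 in controls (log2FC 0.50, SE 0.23, adjusted p = 0.172), and Slc25a39, needed for mitochondrial glutathione, was at 270.04, 205 and 189, against 175, 222 and 186. Neither was called. None of the 5 Slc25 carboxylate carriers was below 0 between littermates, at a median of 0.51, and none passed the test.

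Transporters and partners whose symbols do not match the rule were looked at for comparison, some of them related to Slc families. Of these, 28 were in the table: 2 fell and 4 rose between littermates, beside 11.3% and 5.85% of all genes. Mpc1 and Mpc2, which together form the mitochondrial pyruvate carrier, rose, as did Mtch2, a protein of the outer mitochondrial membrane related to Slc25, and Slco1a6, an organic anion transporter. Mpc1 was at 592, 548 and 328 in Rbpj-/- embryos, against 236, 232 and 215 in controls. All mutants were above all controls (log2FC 1.32 between littermates, SE 0.20, limma adjusted p = 0.00382, and a DESeq2 adjusted p of 0.0171 over all 6). With the length trend described next removed, Mpc1 was no longer called (0.45, adjusted p = 0.187; its longest transcript has 961 bases), and neither were Slco1a6 (adjusted p = 0.0691) and the fallen organic anion transporter gene Slco2a1 (0.107), while Mpc2 and Mtch2 were still called (adjusted p = 0.0178 and 0.0179). In the litter 810 mutant Mpc2 was at 117, within the 95.7 to 131 of the controls, and Mtch2 at 209.98, below the 221 of the lowest control. Mfsd7c, a member of the major facilitator superfamily, fell like the Slc genes above, to 74.4 and 83.6 in the litter 808 mutants and 303 in the litter 810 mutant, against 401, 379 and 425 in controls (log2FC −2.33, SE 0.21, adjusted p = 0.000731).

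Transcript length moved with these results. Over all genes, the fold change between littermates was lower in genes with longer transcripts, with a median of 0.74 in the shortest of 10 bins of genes by length (median length 754 bases) and −0.85 in the longest (8035 bases). Across the 192 Slc genes, which share their libraries, the Spearman correlation of fold change and longest annotated transcript was −0.31, beside −0.44 across all genes. The 31 genes that fell had a median length of 4054 bases, against 3153 for the other tested members, whereas both classes were near the 3118 of all genes (3435 for other Slc and 3133 for Slc25). With the table split at its median length, 23 of 94 longer other Slc genes fell, at a median of −1.08, and 4 of 62 shorter ones, at −0.34, beside medians of −0.67 and 0.29 for all longer and shorter genes. Longer and shorter Slc25 genes had −0.37 and 0.49, and all 4 that fell were longer.

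When a smooth trend with length was removed from each embryo, 20 of the 31 genes were still called lower and no other was (18 other Slc and 2 Slc25, namely Slc25a44 and Slc25a25), beside 6.7% lower and 2.93% higher among all genes. The median became −0.57 in other Slc genes and 0.03 in Slc25, beside −0.20 in all genes. Slc5a3, Slc25a15, Slc6a6, Slc38a6 and Slc25a22 were among the 11 that no longer passed (adjusted p = 0.131, 0.177, 0.262, 0.269 and 0.347). On the recovered reads, edgeR called 22 of the 31 between littermates, beside 7.95% of all genes lower and 4.75% higher, and DESeq2 called all 31 and 43 members in all, beside 15.7% and 9.41%. In 15 alternatives, 9 genes were called each time: Slc25a25, Slc25a44, Slc12a2, Slc12a7, Slc34a2, Slc39a9, Slc45a4, Slc4a11 and Slc7a5. The count outside Slc25 rests on each library. It was 15 without the shallowest mutant and 36 without the other litter 808 mutant, 11 without the heterozygote and 8 and 7 without either wildtype embryo, while the median stayed between −0.95 and −0.73. Library depth and transcript length thus both moved with the littermate comparison, and their part in the fall of the Slc genes was not tested beyond these values.

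**Figure D5:**
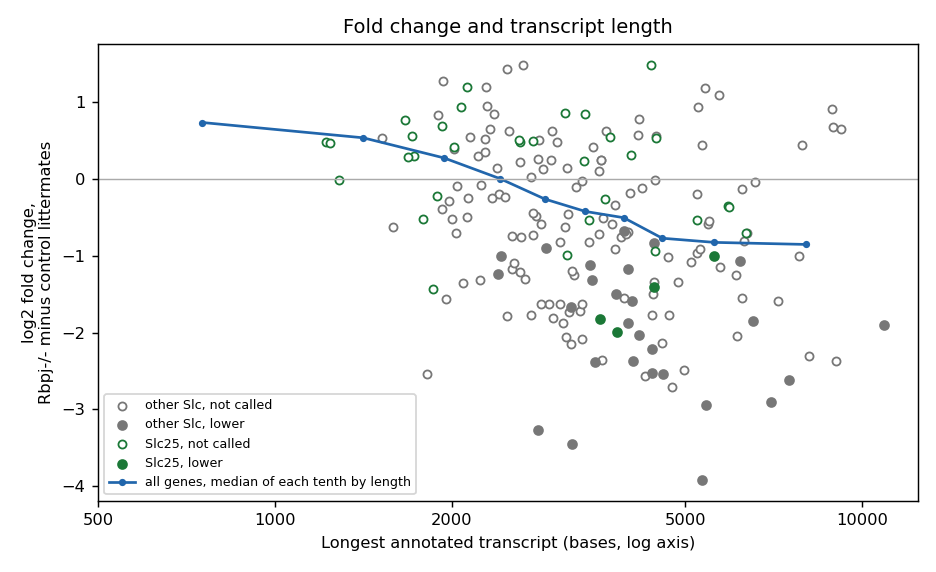
Log2FC between littermates (Rbpj-/- minus control) against the length of the longest annotated transcript (bases, log axis) for 156 other Slc genes (grey) and 36 Slc25 genes (green), filled where the gene was called lower. The blue line joins the medians of all genes in 10 bins by length, from 0.74 in the shortest to −0.85 in the longest; most filled points lie below it.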

How the data were processed

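PicoPure RNA of 6 single morulae was amplified from poly(A) with a SMART-Seq kit that does not keep strand, and sequenced single-end on an Illumina HiSeq. The deposited table holds 1 normalised signal per gene and embryo: the authors quantified reads with RSEM against the GRCm38 transcriptome and gave CPM after TMM scaling in edgeR. CASAVA 1.8.2, cutadapt 1.3 and RSEM 1.2.3 are named in the submitters' processing notes. How low genes were filtered is not given in these sources.

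Within each embryo all values were multiples of what 1 read is worth (100% within 0.01 of a read), which gave back the reads. Limits of 3 reads cover counting error only, since PCR copies are not independent molecules. limma 3.58.1 in R 4.3.3 was run on log2(value + 1) with a variance trend, two-sided, with Benjamini-Hochberg adjustment (threshold 0.05) over 12099 genes, those above a value of 1 in 3 or more embryos. The first design held genotype only, as the study names no covariate, and the second added litter, which compares the litter 808 embryos. edgeR 4.0.16 (quasi-likelihood) and DESeq2 1.42.0 were run on the recovered reads. Other settings tried were a pseudocount of 0.1 or 5, no filter, a minimum mean of 10, median of ratios scaling, quantile normalisation, subtraction of each embryo's loess curve on transcript length (span 0.5), and leaving out each embryo. Leaving out the heterozygote is the same fit as leaving out control replicate 1. Coordinates and lengths came from GENCODE mouse release M21 (GRCm38), promoters from RefSeq.

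The members, role groups and lists were chosen with earlier results of these data known. Genes named were up to 8 other Slc and 5 Slc25 genes with the largest fold changes among those called between littermates at a mean of 10 or more whose mutants all lay on 1 side of the controls, 22 transporters with a role in the early embryo (17 in the table; Slc5a1, Slc16a3, Slc16a7, Slc6a9 and Slc6a20a are not analysed here), the 5 most abundant genes of each class and up to 6 with the smallest count-test p over all 6 embryos. Of these genes 1 is not reported here. Counting groups without the rows that are not carriers, and Slc5a6 with the vitamins, was decided after the values were seen. The other genes called, Slc2a4 and the partners were named after their values were seen.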

Additional observations from a re-analysis of the deposited data

How the results depend on the processing

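Between littermates no setting called an other Slc gene higher, and the other Slc genes called lower were 18 to 39 over the alternatives that keep all embryos and 7 to 36 when 1 embryo was left out (27 with all). For Slc25 the count of lower genes was 2 under quantile normalisation, 2 with the length trend removed, 3 with a pseudocount of 5, 3 with median of ratios scaling, 3 by edgeR and 4 in the other settings that keep all embryos, and 2 to 4 when 1 embryo was left out, with 0 to 1 higher: Slc25a3 without 1 Rbpj-/- embryo of litter 808 and Slc25a5 without the other. Over all 6 embryos DESeq2 called 7 other Slc and 2 Slc25 genes lower, and leaving out 1 embryo gave 0 to 27 and 0 to 4, the highest without the Rbpj-/- embryo of litter 810, which is the littermate comparison. Quantile normalisation shifted the littermate median over all genes to 0.10, where it was −0.16 on the log2 scale, and that of other Slc genes to −0.48. Signs turned only in comparisons that had not passed the threshold with all embryos kept. Slc2a1 between littermates (−0.10) became 0.0017 with a pseudocount of 5, 0.232 under quantile normalisation, 0.242 by edgeR, 0.238 by DESeq2 and 0.0389 without the length trend, and −1.32 to 1.12 with 1 embryo left out. Without the length trend Slc2a3 had 0.487 between littermates, Slc25a5 −0.0704 over all 6 and −0.299 between littermates, and Slc25a39 −0.243 and −0.263. Under quantile normalisation Slc25a3 had −0.178 over all 6 and −0.0315 between littermates, and Slc38a6 −0.168 over all 6. With 1 embryo left out, the log2 fold change over all 6 embryos ranged from −0.10 to 1.89 in Slc2a1, −0.13 to 0.32 in Slc2a3, −0.42 to 0.31 in Slc25a3 and −0.68 to 0.41 in Slc38a6, and that between littermates from −0.35 to 0.97 in Slc25a3 and −0.0228 to 0.96 in Slc25a5. The causes were not tested. No paired analysis was possible because the numbers in the labels name different embryos, and those of the groups compared here coincide only once, in embryos of different litters. With 2 mutants in the littermate comparison, and the shallowest libraries among them, no member with a mean under 10 was called, so that changes of such genes were not resolved at this depth.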
